A study of Mus musculus with 4 samples.

Results

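The 10 cathepsins described here are Ctsl, Ctsa, Ctsb, Ctsc, Ctsd, Ctsf, Ctsh, Ctsk, Ctss and Ctsz, chosen by their gene names from a table of 55820 loci. RNA was sequenced from whole testes of male C57BL/6J mice at postnatal day 10 (P10), with 2 control libraries and 2 Mps1sKO libraries, which the submitters called biological replicates. In Mps1sKO mice, floxed Mps1, the gene listed as Ttk, was deleted by a Cre recombinase under Stra8, which is active in spermatogonia and early spermatocytes and not in the somatic cells of the testis. The labels name the other group only as control and give no further allele for it, and they do not say how many animals went into a library. Each of the 10 was present in the table and each passed the filter on low counts that left 20561 loci for testing.

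Cathepsins are proteases made as inactive precursors, tagged with mannose 6-phosphate, carried to the lysosome and activated there by cleavage at low pH. Most are cysteine proteases of the papain type, while Ctsd is an aspartic protease and Ctsa a serine carboxypeptidase. In the testis, Sertoli cells, which nurse the germ cells and engulf the remains of dying ones, carry many lysosomes and secrete the precursor of cathepsin L into the seminiferous tubule, whereas Ctss and Ctsc are best known from macrophages and other immune cells.

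The libraries held between 23311689 and 28607746 counts. Ttk was at 27.9 and 32.6 CPM (counts per 1000000 counts of the library, scaled with TMM factors) in the control libraries and at 13.0 and 12.2 CPM in the Mps1sKO libraries, a log2 fold change of -1.26 with an adjusted p of 0.0461 by edgeR's quasi-likelihood test, so the targeted gene matched the labels. Of 10 germ cell markers, 9 were lower in Mps1sKO testes, while 50.06% of all tested loci were higher. By edgeR 7 of the 10 had an unadjusted p below 0.05, or 70.0% against 9.3% of all loci. The median log2 fold change of the 10 was -0.41 against 0.00027 over all tested loci. Without Mps1sKO replicate 2 this median was -0.24, and without Mps1sKO replicate 1 it was -0.56. In such bulk RNA, fewer cells of a type and less RNA per cell cannot be told apart. The markers of testis cell types were present, apart from the Sertoli cell gene Rhox5, which had 1 count in all.

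The promoter windows of the cathepsins were read for the E-box CACGTG, the core of the element through which the factors TFEB and TFE3 are known to act on lysosomal genes. RefSeq windows from 250 bases before to 50 bases after a start site (GRCm38.p6) were found for 8 of the 10 genes, 9 windows in all, and none was found for Ctsb and Ctsh. CACGTG, which reads the same on both strands, was in 4 of the 9 windows, against 7.15% of 32851 windows of the same length in the whole table. The longer form TCACGTG, searched on both strands and always containing the shorter one, was in 2 of the 9 against 3.77%. The sites are shown because they are the sequence feature that some of the members share, each 5′ to 3′ on the strand of its gene, with CACGTG in capitals.
Ctsa, chr2:164833749-164833778, plus strand, exonic in 2 and intronic in 3 of 16 transcripts: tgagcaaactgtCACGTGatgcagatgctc
Ctsa, chr2:164833766-164833795, plus strand, exonic in 3 and intronic in 2 of 16 transcripts: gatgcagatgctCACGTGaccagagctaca
Ctsd, chr7:142388055-142388077, minus strand, upstream of the annotated gene: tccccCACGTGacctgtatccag
Ctsd, chr7:142387908-142387937, minus strand, exonic in 1 of 3 transcripts: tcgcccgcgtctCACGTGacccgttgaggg
Ctsl, chr13:64370739-64370768, minus strand, exonic in 1 and intronic in 1 of 7 transcripts: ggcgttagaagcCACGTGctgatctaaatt
Ctsf, chr19:4855074-4855103, plus strand, upstream of the annotated gene: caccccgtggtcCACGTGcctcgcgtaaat

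The motif began 12 bases before and 5 bases after the start site in one window of Ctsa, 245 and 98 bases before it in Ctsd, 236 before it in Ctsl and 79 before it in Ctsf. The start sites of these windows differ from the first bases of the main coding transcripts. They are 164833773 against 164832901 in Ctsa, 142387827 against 142388038 in Ctsd, 64370520 against 64370306 in Ctsl and 4855165 against 4855130 in Ctsf. Both sites of Ctsa and the second site of Ctsd thus lie in exons of the main transcripts, Ctsa-201 and Ctsd-202, downstream of their first bases. The other window of Ctsa, with its start site at 164832872, held no CACGTG. Both sites of Ctsa and the second one of Ctsd were of the longer form on both strands, the first one of Ctsd was so on 1 strand, and those of Ctsl and Ctsf were not. The windows of Ctsc, Ctsk, Ctss and Ctsz held no CACGTG. The 4 genes with a site had log2 fold changes between the genotypes of -0.03 for Ctsa, -0.08 for Ctsd, 0.39 for Ctsl and -0.26 for Ctsf. A match of letters does not show that a factor binds.

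Ctsl was the most abundant of the 10 in counts and per kilobase. Its counts were 31846 and 29256 for control and 32133 and 39842 for Mps1sKO, and it ranked 17th in mean CPM among all tested loci. Of the counts of all 10 genes, Ctsl took 60.0% (95% Wilson interval 59.6 to 60.4) and 54.9% (54.5 to 55.3) in the controls and 62.9% (62.5 to 63.3) and 66.5% (66.1 to 66.9) in the Mps1sKO libraries. These intervals cover counting error only, and the spread between replicates was larger. The fewest counts fell on Ctss, with 221 to 276 per library.

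**Figure D1:**
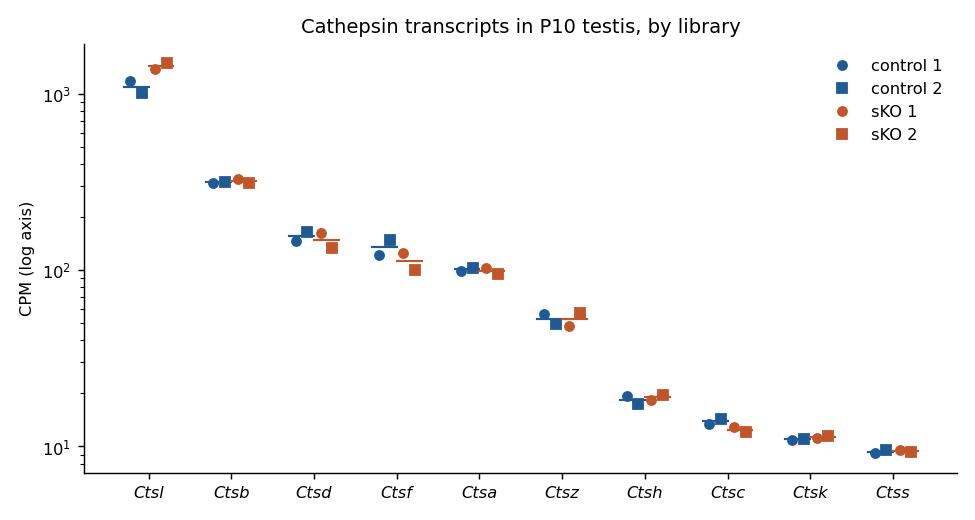
CPM of the 10 cathepsins on a log axis, with 1 point per library (circles, replicate 1; squares, replicate 2) and a line at each group's mean (n = 2). Ctsl lay between 1014 and 1487 CPM, with both Mps1sKO libraries over both controls, and the other genes lay between 9.14 and 328 CPM.

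Compared per length, as CPM per kilobase of the deposited gene length in control testes, the order was Ctsl at 169, Ctsd at 66.3, Ctsb at 52.0, Ctsz at 36.6, Ctsf at 26.7, Ctsa at 21.4, Ctsk at 7.27, Ctss at 6.89, Ctsh at 4.10 and Ctsc at 2.39. Over all 4 libraries the only neighbours in this order whose ranges overlapped were Ctsf, from 19.8 to 29.3, and Ctsa, from 20.2 to 21.9. The deposited length is the union of all annotated exons, which for Ctsl is 6489 bases while its main coding transcript, Ctsl-201, has 1971 bases in 8 exons. With the main transcript's length in its place, Ctsl stood at 557 CPM per kilobase, Ctsd at 73.3, Ctsf at 68.0, Ctsb at 66.3, Ctsz at 36.6, Ctsa at 27.7, Ctsh at 11.4, Ctsk at 7.27, Ctss at 6.90 and Ctsc at 5.56. Ctsf then moved from place 5 to place 3 and Ctsh from place 9 to place 7, while Ctsl, Ctsd, Ctsa and Ctsc kept theirs.

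Between the genotypes, Ctsl was the member with the largest difference. Ctsl (ENSMUSG00000021477, chr13:64359337-64370890, mm10, minus strand) encodes a cysteine endopeptidase that degrades proteins in the lysosome and, when secreted, outside the cell. It was at 1183 and 1014 CPM in the control libraries and at 1387 and 1487 CPM in the Mps1sKO libraries, so that both Mps1sKO values lay above both control values. The group means were 1098 ± 119 CPM and 1437 ± 70.7 CPM (SD, n = 2 each).

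The fold change of Ctsl was 1.31 (95% interval 1.11 to 1.54), which is 0.39 ± 0.10 (SE) on the log2 scale, with an unadjusted p of 0.00593 by edgeR's quasi-likelihood test. Its adjusted p over the 20561 loci was 0.494, so the difference did not pass the correction for the number of loci tested. It rose by the study's relaxed cut-offs, more than 1.2-fold at an unadjusted p below 0.05, which 3.09% of all tested loci passed in the higher direction. It did not pass the study's main cut-offs of 1.5 and 0.01, which 0.827% of loci passed in either direction. Ctsl is also among the genes that the study listed as higher from these libraries, so its direction here is not independent evidence. Without control replicate 2, the library with the lowest Ctsl, the log2 fold change was 0.28 and the unadjusted p was 0.0702. That library also stood apart in fat cell genes, with 129 counts of Fabp4 against 28 in control 1 and 15 and 12 in the Mps1sKO libraries, and 23 of Adipoq against 2, 1 and 7, although the summed level of the 5 adipocyte markers, most of it Plin1, was lowest there, at 17.8 against 19.9 to 24.7 CPM. The part of such tissue in the level of Ctsl was not tested.

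The tested Sertoli cell markers had higher group means in Mps1sKO testes. Of 12 markers, 11 were tested and all 11 had a positive log2 fold change, against 50.06% of all tested loci. Both Mps1sKO libraries lay above both controls for 5 of the 11, against 20.3% of all loci. The groups overlapped for Sox9, Wt1, Amh, Clu, Cldn11 and Gata1. The median log2 fold change of the 11 was 0.26, with 0.45 without control replicate 1 and 0.21 without control replicate 2. By edgeR 4 of the 11, Inha, Kitl, Dhh and Aard, had an unadjusted p below 0.05, or 36.4% against 9.3% of all loci. Of other somatic markers, 4 of 6 for Leydig cells were higher (median 0.18), 4 of 5 endothelial (0.096) and 2 of 8 peritubular and fibroblast (-0.089). None of these had an unadjusted p below 0.05 by edgeR. The summed level of the Sertoli cell list was 6804 and 6957 CPM in the controls and 8577 and 8213 CPM in the Mps1sKO libraries. The geometric mean of the 11 markers was 281 and 246 CPM in the controls and 312 and 337 CPM in the Mps1sKO libraries, with control 2 as the lowest library and Mps1sKO 2 as the highest, as for Ctsl. Without control replicate 2, the unadjusted p of Inha, Kitl, Dhh and Aard were also above the threshold, from 0.0537 to 0.176.

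Set against the markers within each library, Ctsl differed less between the genotypes. The ratio of Ctsl to the geometric mean of the markers was 4.21 and 4.13 in the controls and 4.45 and 4.41 in the Mps1sKO libraries. Both Mps1sKO values of this ratio lay above both controls, and the ratio of the group means was 1.06. The ratio of Ctsl to their summed CPM was 0.174 and 0.146 in the controls and 0.162 and 0.181 in the Mps1sKO libraries, so that by this measure the groups overlapped, with a ratio of the means of 1.07. The part of the Sertoli cell share in the difference of Ctsl was not tested beyond these ratios.

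**Figure D2:**
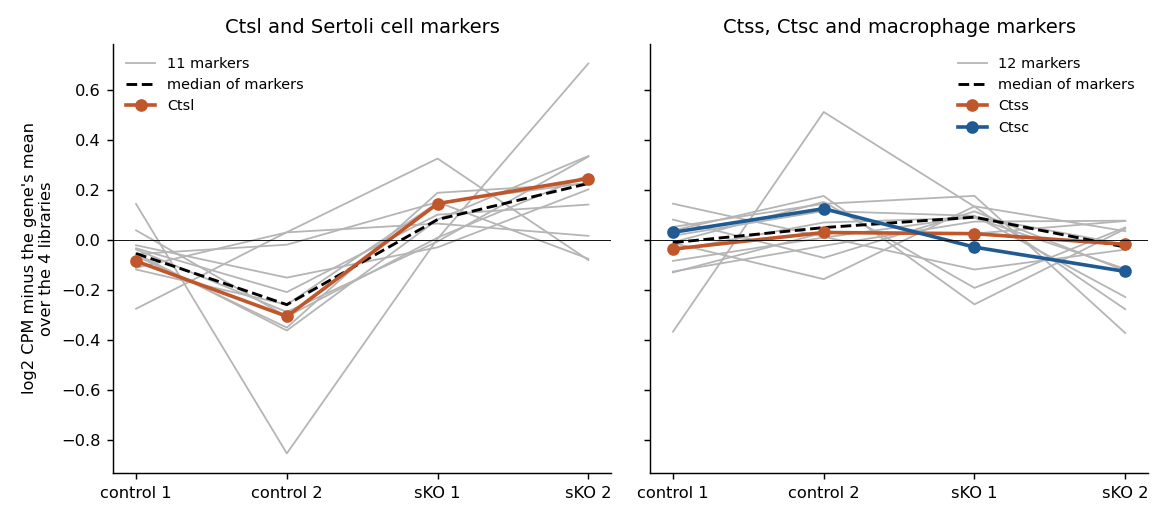
Level of each gene in each library as log2 CPM minus the gene's own mean over the 4 libraries, with lines that join the values of 1 gene (grey, markers; dashed, their median). On the left, Ctsl ran close to the median of the 11 Sertoli cell markers, lowest in control 2 and highest in Mps1sKO 2. On the right, Ctss stayed between -0.04 and 0.03, and Ctsc was lower in both Mps1sKO libraries. Single macrophage markers there spread further than Ctss, such as Itgam from -0.37 to 0.51.

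The 3 loci whose pattern over the 4 libraries was nearest to that of Ctsl, out of 11109 with a mean of at least 10 CPM, were Epha7, Gja1 and Frrs1. Their centred log2 CPM differed from that of Ctsl by a root mean square of 0.0094, 0.0097 and 0.012. Gja1 was at 477 and 415 CPM in the controls and at 566 and 599 CPM in the Mps1sKO libraries, a log2 difference of 0.39 ± 0.10 (SE), and without control replicate 2 its unadjusted p was 0.0709. With 4 libraries this likeness is a description of the values.

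Of the other cysteine endopeptidases among the 10, Ctss and Ctsk did not pass a test of the difference between the genotypes. The cysteine protease Ctso, outside the 10, had both Mps1sKO libraries above both controls and is described below. Ctss, the protease that antigen-presenting cells use to process the invariant chain, was at 9.14 and 9.57 CPM in the controls and at 9.54 and 9.26 CPM in the Mps1sKO libraries. Its fold change was 1.00 (95% interval 0.799 to 1.26), with groups that overlapped. Ctsk, known for the breakdown of collagen by osteoclasts, was at 10.9 and 11.1 CPM in the controls and 11.2 and 11.5 CPM in the Mps1sKO libraries. Its values did not overlap between the groups, yet the log2 difference was 0.05 ± 0.13 (SE) with an unadjusted p of 0.716.

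Ctsf, a further lysosomal cysteine protease, had the most negative difference of the 10. It was at 122 and 147 CPM in the controls and at 124 and 100 CPM in the Mps1sKO libraries, so that Mps1sKO 1 lay between the controls. The log2 difference was -0.26 ± 0.14 (SE), with an unadjusted p of 0.0880 and an adjusted p of 0.586 by edgeR. Without control replicate 1 the difference was -0.40 with an unadjusted p of 0.0167, without Mps1sKO replicate 1 it was -0.43 with 0.00662, and without control replicate 2 or Mps1sKO replicate 2 it was -0.12 in each case and did not pass.

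None of the exopeptidases of the family passed a test of the difference between the genotypes. Ctsb, which removes dipeptides from the C-terminal end and also cleaves within proteins, was at 313 and 317 CPM in the controls and 328 and 312 CPM in the Mps1sKO libraries. It was the most precisely measured of the 10, with a fold change of 1.02 and a 95% interval of 0.888 to 1.17. Ctsh, an aminopeptidase, was at 19.4 and 17.4 CPM in the controls and at 18.5 and 19.6 CPM in the Mps1sKO libraries. Its groups overlapped and its fold change was 1.03 (95% interval 0.849 to 1.26).

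Ctsz, a carboxypeptidase, was at 56.2 and 49.2 CPM in the controls and at 48.2 and 56.8 CPM in the Mps1sKO libraries. The gap between its replicates exceeded the difference of the group means, and its fold change was 0.997 (95% interval 0.825 to 1.21). Ctsc, the dipeptidyl peptidase that activates the granule proteases of immune cells, was at 13.4 and 14.3 CPM in the controls and at 12.9 and 12.02 CPM in the Mps1sKO libraries. Both Mps1sKO values lay below both controls, but the log2 difference of -0.16 ± 0.13 (SE) had an unadjusted p of 0.265 and an adjusted p of 0.727.

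Macrophage markers were present, from 0.520 CPM for Itgam to 43.6 CPM for Mrc1 in a single library. Of 12 markers, all were tested, 4 were higher and 8 lower, and none had an unadjusted p below 0.05. Lyz2 and Cx3cr1 lay above both controls in both Mps1sKO libraries and Adgre1 below. The median log2 fold change of the markers was -0.08, but 0.07 without Mps1sKO replicate 2 and -0.01 without control replicate 2, and their summed level ran from 174 to 182 CPM in the controls and from 171 to 186 CPM in the Mps1sKO libraries. The ratio of Ctss to their geometric mean was 1.02 and 0.981 in the controls and 1.02 and 1.06 in the Mps1sKO libraries. That of Ctsc was 1.502 and 1.47 in the controls and 1.37 and 1.38 in the Mps1sKO libraries, so that both Mps1sKO values of this ratio also lay below both controls. Of 12 markers of other leukocytes 10 were tested, 5 were higher and 5 lower, and their median log2 fold change was 0.04, with values from -0.25 without Mps1sKO replicate 1 to 0.17 without control replicate 2. The neutrophil genes S100a8 and S100a9 were lower with unadjusted p of 0.000669 and 0.00577, from at most 29 counts per library, with a p of 0.0536 for S100a9 without Mps1sKO replicate 2, and the part of such cells in the values of Ctsc was not tested.

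Ctsd, the aspartic endopeptidase of the lysosome, was at 146 and 166 CPM in the controls and at 163 and 133 CPM in the Mps1sKO libraries. The groups overlapped and the fold change was 0.949 (95% interval 0.780 to 1.16). The predicted locus Gm49369 shares 808 exonic bases with Ctsd on the same strand, 34.4% of the exonic bases of Ctsd, and was listed at 0 in every library. How reads in shared exons were assigned is not given in the sources used here, so the level of Ctsd is uncertain, while the comparison of genotypes met the same exons in all 4 libraries.

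Ctsa, the serine carboxypeptidase also called protective protein, holds the beta-galactosidase Glb1 and the sialidase Neu1 in a complex in the lysosome. It was at 99.3 and 103 CPM in the controls and at 103 and 95.1 CPM in the Mps1sKO libraries, with groups that overlapped and a fold change of 0.981 (95% interval 0.848 to 1.13). Its partner Glb1 was at 25.5 and 27.8 CPM in the controls and at 32.7 and 26.7 CPM in the Mps1sKO libraries, with an unadjusted p of 0.266 that was 0.0478 without Mps1sKO replicate 2. Neu1 was at 23.9 and 21.8 CPM in the controls and at 25.2 and 27.3 CPM in the Mps1sKO libraries, with an unadjusted p of 0.116. Neither partner passed the test, although both Neu1 values in Mps1sKO lay above both controls.

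Several of these genes overlap others in the GENCODE M21 annotation, whose positions were those of the table for all 10. Ctsa shares 495 exonic bases with Pltp and 324 with Neurl2, Ctsb shares 774 with Fdft1 and Ctsz shares 10 with Nelfcd, each on the opposite strand, and the strandedness of the libraries is not given in the sources used here. Fdft1 and Pltp had unadjusted p of 0.746 and 0.355, and Nelfcd of 0.0793. Ctsl shares 1742 exonic bases with Gm47123 on the opposite strand and 395 with Gm49230 on its own, both listed at 0. No run of 31 bases in the main transcript of Ctsl occurred in a transcript of another gene, and the same held for Ctsc, Ctsf, Ctsk, Ctss and Ctsz. Such runs made up 19.3% of the main transcript of Ctsa, 16.6% of that of Ctsb, 37.1% of that of Ctsd, all in Gm49369, and 2.14% of that of Ctsh, in Gm5398, so the levels of these 4 genes are less certain.

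Over the 10 genes, 5 log2 fold changes were positive and 5 negative, with a median of 0.0011. By edgeR none of the 10 had an adjusted p below 0.05, as 0.0292% of all loci did, and none did by DESeq2 or limma-voom. At an unadjusted p below 0.05, 1 of the 10 passed, Ctsl, and 9.3% of all loci did. Both Mps1sKO libraries lay above both controls for 2 members, Ctsl and Ctsk, and in 20.3% of all loci, and below both for 1 member, Ctsc, and in 21.1% of all loci. No member passed the relaxed cut-offs in the lower direction, which 4.95% of loci passed. With 10 genes, counts of 0 to 2 lie near these background shares, and nothing about the family as a whole is read from them.

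The summed level of the 10 genes was 1972 and 1849 CPM in the controls and 2206 and 2236 CPM in the Mps1sKO libraries. Without Ctsl it was 789 and 834 CPM in the controls and 819 and 749 CPM in the Mps1sKO libraries, with means of 812 ± 31.9 and 784 ± 49.4 CPM (SD, n = 2 each). The groups were apart with Ctsl and overlapped without it.

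**Figure D3:**
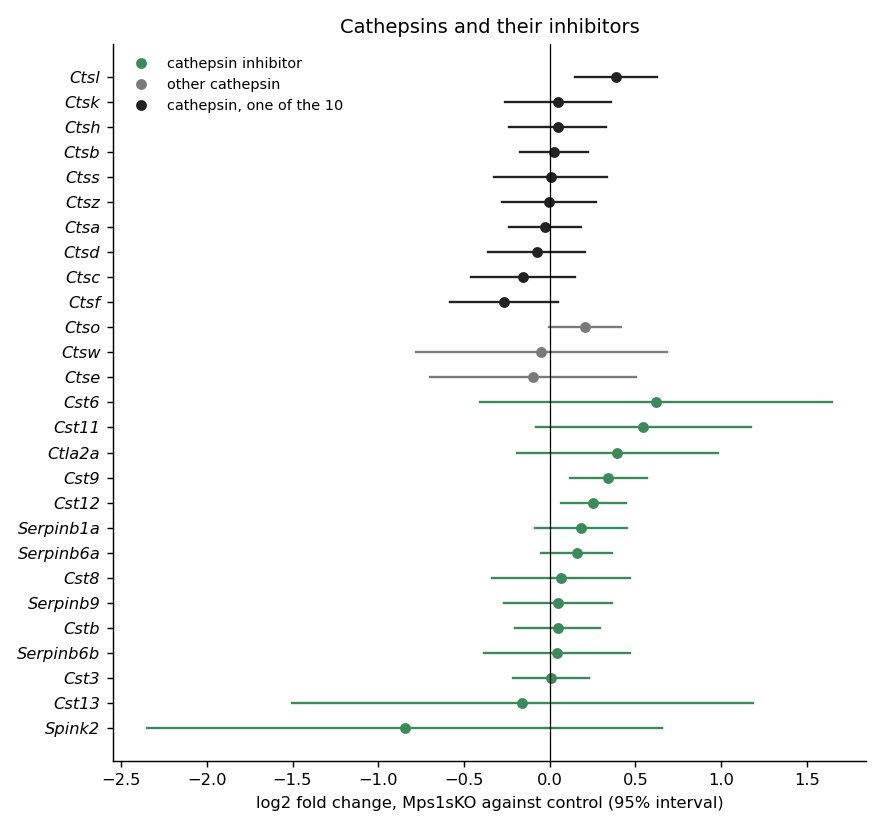
Log2 fold change of Mps1sKO against control with its 95% interval from edgeR, sorted within each kind. Shown are the 10 cathepsins (black), the other tested cathepsins (grey) and the tested genes of the inhibitor list (green). The intervals of Ctsl, Cst9 and Cst12 lay above 0 and those of the other genes crossed it.

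Of 13 further cathepsin genes in the table, 4 had any count. Ctso, a cysteine protease, was at 79.5 and 76.5 CPM in the controls and at 87.2 and 92.8 CPM in the Mps1sKO libraries, with groups that did not overlap, a log2 difference of 0.21 ± 0.09 (SE) and an unadjusted p of 0.0512, which was 0.0477 with DESeq2 size factors in edgeR. The aspartic protease Ctse lay between 2.32 and 3.60 CPM and the lymphocyte cathepsin Ctsw between 1.53 and 2.43 CPM, both with overlapping groups. Ctsg, a serine protease of neutrophils, had 1 count in each of 2 libraries. The other 9, among them the placental cathepsins Ctsj, Ctsm, Ctsq and Ctsr, were at 0 in every library, which allows up to 3 counts or 0.104 to 0.130 CPM per library.

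In the list of cystatins and other protein inhibitors, 2 genes had an unadjusted p below 0.05 by edgeR, Cst9 and Cst12. Both are of the cystatin family, and they are 14.3% of the 14 tested, against 9.3% of all loci. Whether the products of the listed genes inhibit cathepsins was not tested. Cst9, also called testatin and expressed in fetal Sertoli cells, was at 312 and 328 CPM in the controls and at 431 and 380 CPM in the Mps1sKO libraries, a log2 difference of 0.34 ± 0.10 (SE) with an unadjusted p of 0.00814. Cst12 was at 338 and 339 CPM in the controls and at 402 and 405 CPM in the Mps1sKO libraries, a log2 difference of 0.26 ± 0.08 (SE) with an unadjusted p of 0.0156. Their adjusted p by edgeR were 0.494 and 0.497. Without control replicate 1 neither passed, with unadjusted p of 0.0640 and 0.116, and Cst12 also did not pass without control replicate 2, at 0.110.

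The broadly expressed inhibitors did not pass the test. Cst3, the cystatin secreted by most cells, was at 240 and 247 CPM in the controls and at 230 and 260 CPM in the Mps1sKO libraries. Cstb, the inhibitor of cathepsins in the cytosol, was at 33.7 and 34.9 CPM in the controls and at 33.3 and 37.5 CPM in the Mps1sKO libraries. Ctla2a, which resembles the propeptide of cathepsin L, was at 1.34 and 1.42 CPM in the controls and at 1.68 and 1.94 CPM in the Mps1sKO libraries, with an unadjusted p of 0.157, and Ctla2b had at most 3 counts per library. Of the 14 tested genes of the list, 12 had a positive log2 fold change, against 50.06% of all tested loci. The median of the 14 was 0.11, with 0.20 without Mps1sKO replicate 1 and 0.18 without control replicate 2. Several values were near 0 with groups that overlapped, such as 0.0070 for Cst3 and 0.046 for Cstb. Cst6, Cst13 and Spink2 had at most 19 counts per library.

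The genes that process and deliver the cathepsins did not differ in one direction. Of 19 tested, 9 were higher and 10 lower, and the median of their log2 fold changes was -0.0036. Lgmn, the asparaginyl protease that cleaves cathepsin precursors, was at 136 and 170 CPM in the controls and at 138 and 129 CPM in the Mps1sKO libraries, with an unadjusted p of 0.133 that was 0.0274 without control replicate 1. The mannose 6-phosphate receptors M6pr and Igf2r had log2 differences of 0.01 ± 0.08 and 0.07 ± 0.12 (SE), and Gnptab, a subunit of the enzyme that starts the mannose 6-phosphate tag, one of 0.12 ± 0.08. Psap, the precursor of the saposins, lay between 753 and 834 CPM with a log2 difference of 0.08 ± 0.09. Sort1, a sorting receptor, had a log2 difference of 0.24 ± 0.09 with an unadjusted p of 0.0303, the lowest of the list, and did not pass without control replicate 1, control replicate 2 or Mps1sKO replicate 2, with p of 0.0781, 0.252 and 0.0776.

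Among 34 other lysosomal hydrolases, 28 had a positive log2 fold change and 6 a negative one, with a median of 0.11 that was 0.18 without control replicate 1 and 0.08 without control replicate 2, and 6 had an unadjusted p below 0.05, all of them higher, or 17.6% against 9.3% of all loci in either direction. Ppt1, the thioesterase that removes palmitate from proteins, was at 537 and 558 CPM in the controls and at 700 and 654 CPM in the Mps1sKO libraries, a log2 difference of 0.31 ± 0.09 (SE) with an unadjusted p of 0.00849, which was 0.0839 without control replicate 1. Sgsh, Aga, Gusb and Asah1, which act on heparan sulfate, glycoproteins, glucuronides and ceramide, had log2 differences of 0.36, 0.27, 0.25 and 0.24 with unadjusted p from 0.0214 to 0.0330, and each had a p above 0.05 without control replicate 2, at 0.122, 0.0920, 0.231 and 0.288. With DESeq2, Aga and Gusb had unadjusted p of 0.0620 and 0.0598. Without Mps1sKO replicate 2 the log2 differences of Sgsh, Aga and Asah1 were lower too, at 0.23, 0.26 and 0.21, and that of Gusb was higher, at 0.27. None of the 34 had an adjusted p below 0.05 by edgeR. The summed level of the list was 1982 and 1929 CPM in the controls and 2246 and 2184 CPM in the Mps1sKO libraries, so that it was apart between the groups, unlike that of the cathepsins without Ctsl.

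The 15 genes of the lysosomal membrane were divided, with 7 higher and 8 lower, a median of -0.0039 on the log2 scale and none with an unadjusted p below 0.05. The 10 regulators of lysosomal genes, TFEB and TFE3 among them, were 5 higher and 5 lower, and none of them had an unadjusted p below 0.05. Tfeb was at 14.2 and 9.81 CPM in the controls and at 12.3 and 14.7 CPM in the Mps1sKO libraries, and Tfe3 at 103 and 97.3 CPM and at 118 and 110 CPM, with an unadjusted p of 0.395 for Tfeb, which was 0.0439 without control replicate 1, and of 0.0740 for Tfe3. A transcript level says nothing of where these factors lay in the cell.

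**Figure D4:**
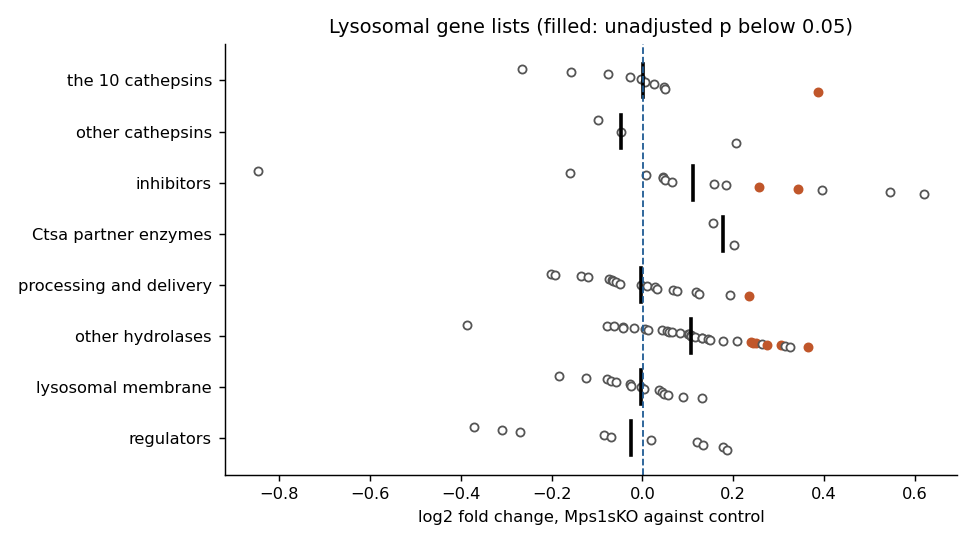
Log2 fold change of each tested gene in 8 lists of lysosomal genes, with filled points where the unadjusted p was below 0.05, a black bar at each list's median and a dashed line at the median of all 20561 tested loci. In the row of the 10 cathepsins only Ctsl is filled, while the row of the other hydrolases holds 6 filled points and lies mostly to the right of the line.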

How the data were processed

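Whole testes at P10 were profiled by RNA sequencing in 2 control and 2 Mps1sKO libraries (NEBNext Ultra kit, 150 bp paired-end reads). The submitters' processing notes name HISAT2 2.0.5, featureCounts, DESeq2 1.16.1 and mm10, and the strandedness is not given in the sources used here. The authors deposited raw counts and FPKM values per locus, of which the FPKM served for a check of the counts alone. Differences in counts were fitted in edgeR 4.0.16 under R 4.3.3 (filterByExpr, TMM, quasi-likelihood F test on genotype, two-sided), and p-values were adjusted by Benjamini and Hochberg over 20561 loci. CPM are TMM-scaled. Alternatives used DESeq2 1.42.0, limma-voom 3.58.1, other scalings and filters, a replicate block and each library left out. The fit was tested on simulated data with planted changes larger than that of Ctsl. That test cannot speak to differences as small as those of the cathepsins. A floor of 3 counts was used for loci at 0. With 2 libraries against 2, an exact permutation test cannot go below 0.333.

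The members, lists and rules were chosen with earlier results of these data known. Named were all 10 members, Ttk, other cathepsins with a count, fixed partners and inhibitors, from each other lysosomal list up to 5 genes per direction with the lowest unadjusted p below 0.05 and groups apart, and the 3 loci most like Ctsl; others, such as Tfeb, Tfe3 and genes that overlap a member, were named after their values were seen. Annotation came from GENCODE M21 and promoter sequence from RefSeq (GRCm38.p6). Protein sequences were not analysed here.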

Additional observations from a re-analysis of the deposited data

How the results depend on the processing

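Ctsl had a positive log2 fold change under all 13 alternatives, from 0.28 to 0.50. In 12 of them its unadjusted p stayed below 0.05, and the exception was without control replicate 2. Without the filter on low counts, 1 member, Ctsl, had an adjusted p below 0.05, 2 members had an unadjusted p below 0.05 and 1 passed the relaxed cut-offs in the lower direction, the second being Ctsf. With each library left out in turn, members past the relaxed cut-offs ranged from 0 to 1 in either direction, members with an unadjusted p below 0.05 from 0 to 2, and the median log2 fold change of the members from -0.013 to 0.030, the last without Mps1sKO replicate 2. The libraries share only a number. The gap between the controls had a weak negative correlation with that between the same-numbered Mps1sKO libraries (-0.19 over tested loci). With a replicate block, 0 members had an adjusted p below 0.05, as without it, and 2 loci in all did against 6, while Ctsl had a log2 fold change of 0.39 with an unadjusted p of 0.0204 and Cst12 (0.0759), Sort1, Sgsh, Aga, Gusb, Asah1 and Aard no longer passed. With the crossed pairing, an alternative added after the data were seen, 550 loci and 1 member had an adjusted p below 0.05, 2 members had an unadjusted p below 0.05 and 1 passed the relaxed cut-offs in the lower direction. That pairing is among the 13 alternatives, and its counts are not independent support. Differences near 0 changed sign with the library left out: Ctsa ran from -0.088 to 0.031, Ctsb from -0.011 to 0.061, Ctsd from -0.23 to 0.066, Ctsh from -0.030 to 0.12, Ctss from -0.028 to 0.039, Ctsz from -0.13 to 0.11, Ctse from -0.38 to 0.25, Ctsw from -0.52 to 0.33, Cst3 from -0.084 to 0.093, Cstb from -0.043 to 0.13, M6pr from -0.020 to 0.039, Igf2r from -0.098 to 0.21 and Tfeb from -0.066 to 0.46. The median of the inhibitors was 0.16 with DESeq2. They also turned with library size only for Ctss (-0.015), Cst3 (-0.014) and M6pr (-0.012), with at least 10 counts in every library for Ctss (-0.00011) and with DESeq2 for Ctsz (0.0019). Of the genes followed through the alternatives, 17 had an unadjusted p below 0.05 by edgeR, and 15 of these lost it under at least 1 of the 13. Epha7, Frrs1, Fabp4 and Plin1 were not followed in this way. Where an arm was left with 1 library, that library was assumed to vary like the other group. The causes were not tested. Over all loci, the 6 with an adjusted p below 0.05 became 37 with DESeq2, 3 with limma-voom, 3 with at least 10 counts in every library, 390 without a filter and 17 to 199 with a library left out. The 95% intervals of Ctss, Ctsc and Ctsk, from 221 to 413 counts per library, spanned both directions.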
